A study of Drosophila melanogaster with 6 samples.

Results

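The genes described here encode the machinery by which a nerve terminal releases and recovers its synaptic vesicles. They comprise synaptotagmins, SNARE proteins and their regulators, active zone scaffolds, vesicle-associated proteins and endocytic proteins. They were chosen by gene name from a list of 38, and all 38 were found among the 17807 genes of the count table. Their RNA was measured in whole pupal brains of Drosophila melanogaster, dissected 24 h after puparium formation, in 3 WT libraries and 3 TetAXXC libraries. TetAXXC flies carry mutations in the CXXC zinc finger, the DNA-binding domain of Tet, made with CRISPR/Cas9 in the germline of a nos-Cas9 stock and repaired from a mutated donor. The edit is inherited and not confined to a cell type, and a DsRed marker used for screening had been excised with the piggyBac enzyme. The labels name the control only as WT and give neither the stock it came from nor the sex of the pupae. They count 30 brains per genotype without saying whether that is for each library, so each library is a pool of brains, and they call the replicates independent biological ones. Tet itself was counted at 852, 680 and 839 CPM in WT and at 856, 798 and 941 CPM in TetAXXC, which overlapped (edgeR adjusted p 0.499), and a count per gene does not resolve the edited domain.

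At a synapse, the vesicle SNARE neuronal synaptobrevin pairs with syntaxin and SNAP-25 on the plasma membrane, and zippering of this complex drives fusion. Synaptotagmins sense calcium, scaffold proteins of the active zone place vesicles beside calcium channels, and clathrin with its AP-2 adaptor and dynamin retrieves the membrane afterwards. At this stage of metamorphosis larval circuits of the fly brain are being remodelled, and most adult synapses have yet to form.

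Library totals lay between 17861742 and 19521285 counts. Levels are given as CPM, counts scaled to each library's TMM-adjusted total, and levels of different genes are compared only per kilobase of exon (RPKM). Fold changes are TetAXXC against WT. The 10 neuron markers examined (elav, fne, Appl, futsch, para, onecut, cpo, Sh, nrv3 and jeb) were all counted in every library and 0 of the 10 passed the test between genotypes (0 at an unadjusted p under 0.05 as well). Their summed level ran from 5700 to 7437 CPM in WT and from 6193 to 7600 CPM in TetAXXC. In bulk tissue, fewer cells of a type and less RNA per cell cannot be told apart. Of the 28 testis markers, 19 of the 24 tested were higher in TetAXXC, with sums from 83.8 to 197 CPM in WT and from 616 to 1818 CPM in TetAXXC. Genes low in WT can pass the filter on low counts through the TetAXXC libraries alone. The share of tested genes called higher depends in part on that filter. Of the 10 glial markers 4 were lower and 1 was higher, the lower ones including Gat and alrm of astrocyte-like glia. Of the 8 photoreceptor markers, 3 of the 6 tested were lower in TetAXXC, as were 2 of the 6 tested fat body markers, while 2 of 8 hemocyte markers and 1 of 7 neuroblast markers were higher and 0 of 9 muscle markers passed (0 at an unadjusted p under 0.05). Over all genes tested, 3.17% were lower and 12.1% higher. The part of these differences in the results below was not tested.

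The 36 genes with counts were expressed over a 121-fold range of level per exon length. Syt4, a synaptotagmin of retrograde signalling at fly synapses (FBgn0028400, chromosome 3R, 7266065 to 7270809), had the highest level, with a mean of 221 RPKM over the 6 libraries. Next came alphaSnap, the adaptor that brings the SNARE-separating ATPase to used complexes, at 196 RPKM, nSyb, the neuronal synaptobrevin, at 182 RPKM, and Cadps, the dense-core vesicle priming factor, at 166 RPKM. The ranges of alphaSnap, nSyb and Cadps over the libraries overlapped from one to the next, whereas that of Syt4 lay above all of them. From Rab3 (98.8 RPKM) down to comt (33.0 RPKM) each gene overlapped with the next in order, so neighbours in that run are not distinguished, while its ends are: Rab3 ranged from 95.1 to 102.8 RPKM and comt from 30.6 to 34.3 RPKM. The least expressed were Sytalpha at 3.88 RPKM and Syt12 at 1.84 RPKM, with 201 to 284 and 131 to 202 counts per library.

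**Figure D1:**
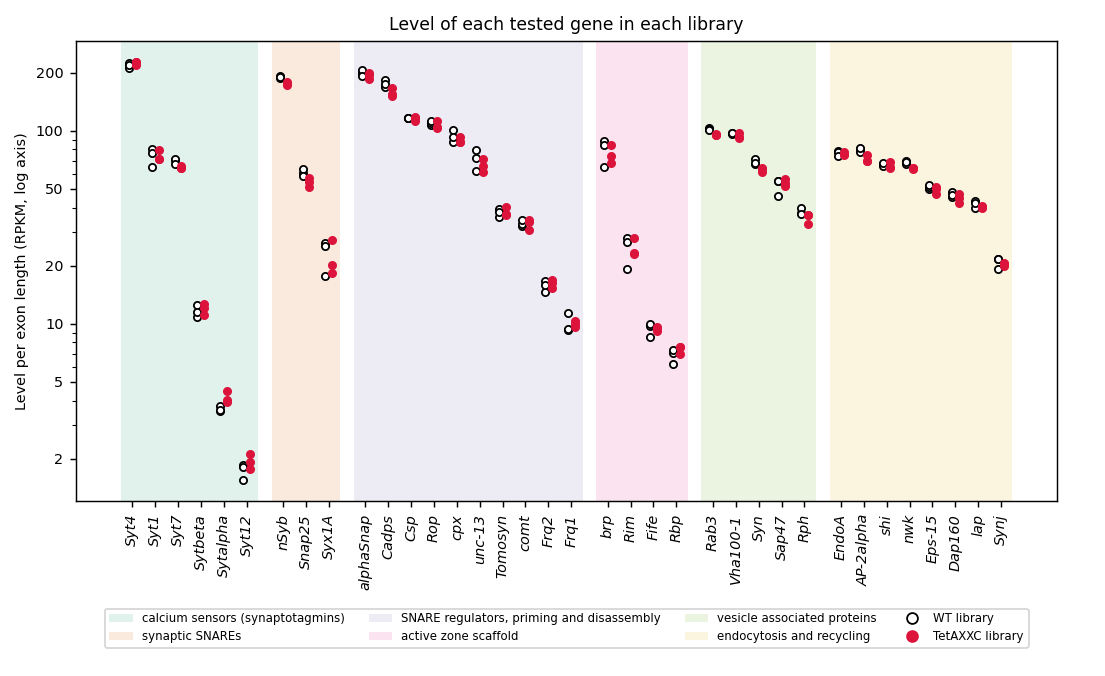
Level per exon length (RPKM, log axis) of the 36 genes with counts, grouped by role, with 1 open circle for each WT library and 1 filled circle for each TetAXXC library. Differences between genes, from 1.84 RPKM for Syt12 to 221 RPKM for Syt4, are far larger than those between genotypes within a gene.

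The remaining pair, stnA and stnB, had 0 counts in all 6 libraries, and these zeros do not measure their level. The stoned locus (stnA, FBgn0016976, and stnB, FBgn0016975, chromosome X, 22980722 to 23004648, minus strand, Release 6) is transcribed as 1 dicistronic messenger that encodes both stonins, adaptors needed to retrieve synaptotagmin from the plasma membrane. In the deposited table both genes have the same 8332 bases of exon, so 100% of each is shared with the other on the same strand. A read from this messenger has no base that would assign it to 1 of the 2 genes. Syx1A shares 10.7% of its exonic bases with eIF4EHP on its own strand and nwk shares 1.87% with mir-4940, and 0 of the other 34 genes share any. On the opposite strand the largest overlap is in unc-13, where 25.2% of the exonic bases face non-coding or antisense RNA genes.

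The comparison of genotypes asked which of these genes differ in TetAXXC brains. Of the 36 tested, 1 was lower and 0 were higher at an edgeR adjusted p under 0.05, that is 2.78%, where 15.2% of all 11198 genes tested were called (3.17% lower and 12.1% higher). Among the 6320 genes averaging 4 log2 CPM or more, 4.59% were lower. With the replicate number as a block, 3 of the 36 were lower (AP-2alpha, Syn and Cadps) and 0 higher, where 5.31% of all genes were lower. With DESeq2 8 were lower and 0 higher (background 6.48% lower), and with limma-voom 0 were called (background 1.16% in either direction). The estimate was negative for 25 of the 36 (69.4%, background 48.9%, or 58.1% of those 6320 more abundant genes). The median log2 fold change was -0.042, against 0.0041 for all genes tested and -0.019 for those 6320 more abundant genes. Each library's median log2 deviation from the 6-library mean, over the 36 genes, was 0.063, -0.014 and 0.036 in WT. In TetAXXC it was -0.042, -0.050 and 0.021, so the genotypes overlapped. The SD of these library medians within genotypes was 0.039. Before adjustment 8 of the 36 had a p under 0.05, all with a lower level in TetAXXC (22.2%). The background in that direction was 8.31% of all genes tested and 11.7% of the more abundant ones, and in either direction it was 26.4%. The libraries of the genotypes did not overlap in 10 of the 36 (27.8%, background 32.7%), with TetAXXC lower in 9 (25.0%, background 12.4%, or 15.9% of the more abundant genes) and higher in 1 (background 20.4%). The estimates lay between -0.16 and 0.20, but their 95% intervals reached -0.53 for Syx1A and 0.50 for Syt12. The 95% interval of the log2 fold change lay within 0.3 either side of 0 for 30 of the 36 and within 0.2 for 18.

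**Figure D2:**
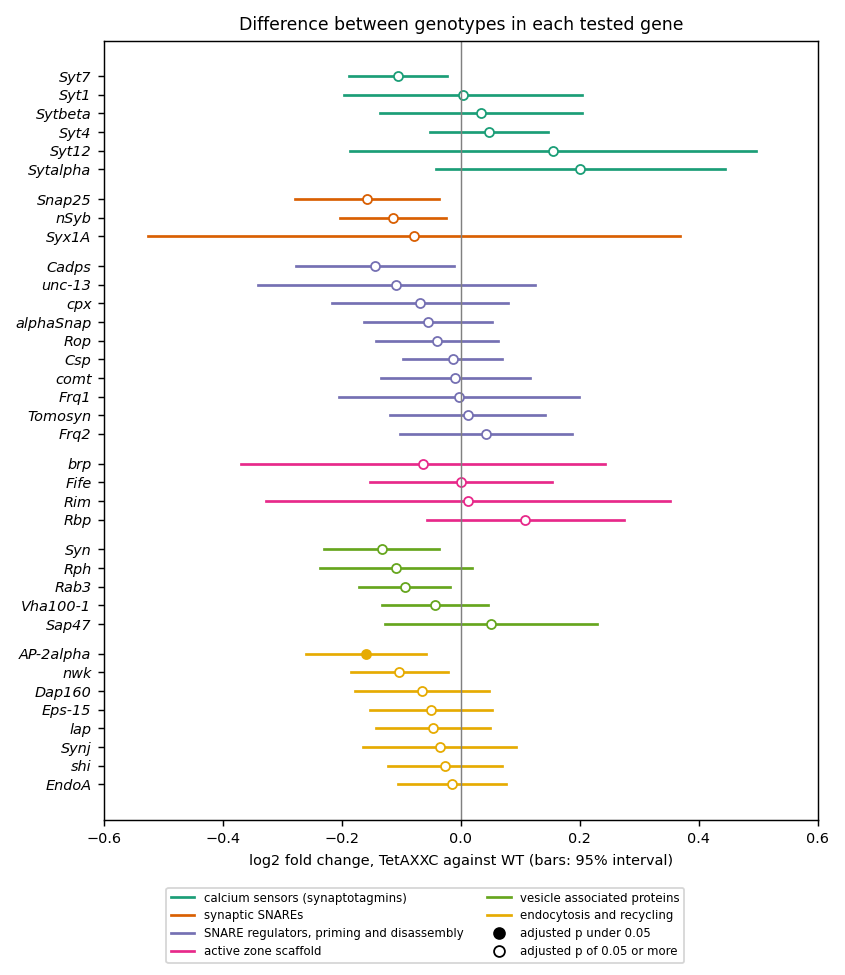
Log2 fold change of each tested gene in TetAXXC against WT (x axis), with its 95% interval as a bar, by role. The filled point marks AP-2alpha, with an adjusted p under 0.05, and open points mark the other 35 genes, whose estimates run from -0.16 (Snap25) to 0.20 (Sytalpha).

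Among the genes of endocytosis and recycling, AP-2alpha was lower in TetAXXC. It encodes the large alpha subunit of AP-2, the adaptor that links clathrin to cargo and to the plasma membrane (FBgn0264855, chromosome 2L, 408030 to 414777, minus strand). It was counted at 391, 379 and 394 CPM in WT replicates 1, 2 and 3 and at 340, 338 and 364 CPM in TetAXXC replicates 1, 2 and 3. Every TetAXXC library was below every WT library. The log2 fold change was -0.16 (standard error 0.04, 95% interval -0.26 to -0.06), which puts TetAXXC at 89.5% of WT, with an edgeR adjusted p of 0.0474. This call is close to the threshold. The adjusted p was between 0.0635 and 0.159 with any 1 library left out other than TetAXXC replicate 3, where it was 0.0462. It was 0.0981 with upper-quartile scaling, 0.111 with limma-voom and 0.138 in a fit of the more abundant genes alone. Over all alternatives the adjusted p ran from 0.00115 to 0.159 and the log2 fold change from -0.19 to -0.14.

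The other 7 tested endocytic genes did not pass. The estimate was negative in all of them, as in 58.1% of the more abundant genes. Nwk, a membrane-bending F-BAR protein that restrains synaptic growth, was nearest. Its gene was at 393, 379 and 389 CPM in WT and 362, 356 and 362 CPM in TetAXXC. The groups did not overlap, yet the adjusted p was 0.0964. EndoA, encoding the curvature-sensing endophilin (chromosome 3R, 18906609 to 18910755), had the highest level per exon length of this group at 76.4 RPKM. It was counted at 326, 321 and 308 CPM in WT and at 321, 309 and 315 CPM in TetAXXC, so the groups overlapped. Synj, the lipid phosphatase synaptojanin that helps to uncoat vesicles (chromosome 2R, 22080176 to 22085767), had the lowest at 20.5 RPKM, with 103, 91.0 and 103 CPM in WT and 97.9, 94.5 and 96.8 CPM in TetAXXC. These groups overlapped as well. For shi, the dynamin that pinches vesicles off, the 95% interval ran from -0.12 to 0.07, and for lap, the clathrin assembly protein AP180, from -0.14 to 0.05. Dap160 and Eps-15, partner scaffolds of the endocytic zone, had estimates of -0.07 and -0.05, with adjusted p of 0.466 and 0.547.

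The endocytic genes outside the list were read from a separate list of 21, all tested. Of these 1 was lower, AP-2mu (4.76%, background 3.17%, or 4.59% of the more abundant genes), and 0 were higher. The median log2 fold change was -0.07, with a negative estimate in 18 (85.7%, background 48.9%, or 58.1% of the more abundant genes). The estimates ran from -0.16 to 0.16. At an unadjusted edgeR p under 0.05, 5 were lower (23.8%, background 8.31%, or 11.7% of the more abundant genes). In the other direction 2 were higher (background 18.1%). AP-2mu encodes the cargo-binding medium subunit of the same adaptor. It was at 194, 197 and 201 CPM in WT and at 177, 183 and 183 CPM in TetAXXC, and all its TetAXXC libraries were below all WT libraries. The log2 fold change of -0.13 had a standard error of 0.03, and the adjusted p was 0.0481. That p was between 0.0353 and 0.177 with 1 library left out, and the call held in 1 of those 6 cases, without TetAXXC replicate 2. AP-2sigma, the small subunit, Chc, clathrin heavy chain, and Clc, clathrin light chain, were picked out after their values were seen. Their log2 fold changes were -0.07, -0.10 and -0.12, and none of these 3 passed, with adjusted p of 0.562, 0.207 and 0.0949.

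None of the 3 synaptic SNARE genes passed the test by edgeR, while 2 of the 3 had an unadjusted p under 0.05 and passed with DESeq2. Both were lower in TetAXXC. Over all genes tested, the background in that direction was 8.31% for the unadjusted edgeR p and 6.48% for DESeq2. For the edgeR p it was 11.7% of the more abundant genes. Snap25, encoding the plasma membrane SNARE that brings a pair of helices to the complex (FBgn0011288, chromosome 3L, 24074180 to 24299205), was counted at 138, 144 and 132 CPM in WT and at 117, 124 and 130 CPM in TetAXXC. The groups did not overlap. Its log2 fold change was -0.16 (95% interval -0.28 to -0.04), with an adjusted p of 0.0918. The vesicle SNARE gene nSyb (chromosome 3L, 1630348 to 1637752) was at 784, 761 and 770 CPM in WT and at 710, 725 and 703 CPM in TetAXXC, again without overlap. The log2 fold change was -0.11 (95% interval -0.20 to -0.03), with an adjusted p of 0.0932. Syx1A, the syntaxin of the presynaptic membrane (chromosome 3R, 24101600 to 24105763), had the lowest level of the 3 (22.4 RPKM). Its libraries were at 109, 73.2 and 106 CPM in WT and at 83.4, 76.6 and 112 CPM in TetAXXC, so the groups overlapped. The 95% interval of its log2 fold change, -0.53 to 0.37, was the widest of the 36 genes.

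Each synaptic SNARE has broadly expressed relatives, and these were read from a list of 30 other SNARE genes and cofactors, all tested. The only one of the 30 to pass (3.33%, background 3.17% lower) was Syx13, an endosomal syntaxin. It was at 71.8, 72.4 and 74.3 CPM in WT and at 66.3, 59.6 and 59.0 CPM in TetAXXC, without overlap, and its log2 fold change was -0.24 (adjusted p 0.0298). The call was lost, with adjusted p up to 0.0996, without any 1 of the WT replicates or TetAXXC replicate 3. The list's median log2 fold change was -0.017. Per exon length, nSyb was between 1.63 and 1.87 times the level of Syb, its ubiquitous paralog, and Snap25 between 1.48 and 1.76 times that of Snap24 over the 6 libraries. These ratios overlapped between the genotypes.

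The regulators that guard, prime and take apart SNARE complexes were 10 genes, of which 0 passed the edgeR test. Cadps, which readies dense-core vesicles for release (FBgn0053653, chromosome 4, 1230837 to 1271759), had the most negative estimate. It was counted at 1055, 965 and 1000 CPM in WT and at 896, 873 and 964 CPM in TetAXXC, so that the highest TetAXXC library lay just under the lowest WT library. The log2 fold change was -0.14 (95% interval -0.28 to -0.01) and the adjusted p 0.153, or 0.0491 with the replicate block. The priming factor unc-13, the longest of the 36 genes with 22598 bases of exon, averaged 68.7 RPKM. It was at 1788, 1405 and 1636 CPM in WT and at 1487, 1381 and 1611 CPM in TetAXXC, with WT replicate 2 below 2 of the TetAXXC libraries. Its estimate of -0.11 carried a 95% interval of -0.34 to 0.12.

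The regulators differed in steadiness, and among them Csp varied least between the libraries of each genotype. Csp, a DnaJ chaperone of vesicle proteins, was counted at 357, 359 and 359 CPM in WT and at 345, 362 and 357 CPM in TetAXXC, with a 95% interval of -0.10 to 0.07 that was the narrowest in the list bar that of nwk, Rab3 and Syt7. The highest level per exon length in the group was that of alphaSnap (chromosome 3L, 20313632 to 20316577), at 414, 427 and 400 CPM in WT and 400, 413 and 382 CPM in TetAXXC, which overlapped. Rop, the Sec1/Munc18 protein that binds syntaxin, had an interval of -0.14 to 0.06, and comt, the NSF ATPase that separates SNAREs, of -0.13 to 0.12. For cpx, encoding the fusion clamp complexin, it ran from -0.22 to 0.08, and for Tomosyn, a decoy for the vesicle SNARE, from -0.12 to 0.14.

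Frq1 and Frq2 encode frequenins, calcium-binding proteins of the nerve terminal, and lie side by side on chromosome X, from 18155369 to 18174744 and from 18177612 to 18204407. Their transcript sequences were not compared here. If they are alike enough to share reads, how the counts divide between them is uncertain. Frq1, the lowest of the regulators at 10.01 RPKM, was at 65.3, 53.4 and 53.6 CPM in WT and at 57.0, 55.4 and 59.5 CPM in TetAXXC. Frq2 was at 74.8, 65.7 and 71.6 CPM in WT and 69.3, 73.1 and 76.0 CPM in TetAXXC. Both overlapped between genotypes, with adjusted p of 0.989 and 0.752.

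Of the 6 synaptotagmin genes 0 passed the test, and 5 of the 6 estimates were positive, as were 5720 of all 11198 genes tested. Syt1, the calcium sensor of fast release, was counted at 575, 466 and 549 CPM in WT and at 514, 512 and 568 CPM in TetAXXC, with a 95% interval of -0.20 to 0.20. Syt4 was at 694, 652 and 682 CPM in WT and at 682, 707 and 706 CPM in TetAXXC. In both genes the groups overlapped. Syt7, a high-affinity calcium sensor in mammals, was the only one of the 6 with a negative estimate, at 232, 235 and 223 CPM in WT and 213, 212 and 217 CPM in TetAXXC. Its groups did not overlap, and the log2 fold change was -0.11 (adjusted p 0.0931).

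The largest positive estimates of the 36 were those of the least expressed synaptotagmins, which are less well characterised. Sytalpha (FBgn0261089, chromosome 2L, 17592260 to 17604387) was counted at 11.9, 11.3 and 11.4 CPM in WT and at 12.9, 14.4 and 12.5 CPM in TetAXXC. The groups did not overlap, and the log2 fold change was 0.20 (95% interval -0.04 to 0.44, adjusted p 0.282). The testis markers were most abundant in TetAXXC replicate 1 (summed level 1818 CPM), and Sytalpha was highest in TetAXXC replicate 2, where they summed to 616 CPM. The part of testis RNA in the Sytalpha values was not tested. Sytbeta, a relative of Sytalpha, was at 57.0, 49.5 and 52.5 CPM in WT and at 55.0, 50.4 and 57.4 CPM in TetAXXC, with overlap and an adjusted p of 0.846. Syt12 (FBgn0261085, chromosome X, 13359248 to 13368179) was at 8.94, 8.78 and 7.44 CPM in WT and at 8.53, 10.2 and 9.26 CPM in TetAXXC, with overlap. Its log2 fold change was 0.15 (adjusted p 0.589). The 95% interval of Syt12, from -0.19 to 0.50, holds 0 as well as larger changes, so a change of that size is neither shown nor excluded.

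The scaffold genes of the active zone showed no difference that passed the test, and 0 of the 4 had an unadjusted p under 0.05. Bruchpilot (brp), the ELKS-family protein that forms the T-shaped release site (FBgn0259246, chromosome 2R, 9503765 to 9541565), was counted at 1177, 863 and 1121 CPM in WT and at 983, 909 and 1132 CPM in TetAXXC. The WT libraries spanned more than the TetAXXC ones, and the 95% interval ran from -0.37 to 0.24. Rim, which links calcium channels to vesicles, was at 397, 273 and 378 CPM in WT and at 333, 329 and 395 CPM in TetAXXC, with the same WT library lowest. Rbp, the RIM-binding protein (FBgn0262483, chromosome 3R, 15374635 to 15402543), had the lowest level of the group (7.11 RPKM) and the largest positive estimate. It was at 64.4, 56.5 and 66.3 CPM in WT and at 69.1, 63.7 and 69.0 CPM in TetAXXC, which overlapped, and its log2 fold change was 0.11 (adjusted p 0.411). Fife, a Piccolo-RIM relative, averaged 91.1 ± 7.72 CPM over the WT libraries and 91.1 ± 2.58 CPM over the TetAXXC ones (SD, n = 3 each), with a 95% interval of -0.15 to 0.15.

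Other active zone genes were read from a list of 16 found in the table, of which 15 were tested. Here 2 were lower (13.3%, background 3.17%, or 4.59% of the more abundant genes) and 0 higher, with a median of -0.05. Spn, the spinophilin that binds Neurexin and regulates active zone seeding, was at 1125, 1097 and 1044 CPM in WT and at 909, 819 and 904 CPM in TetAXXC. All TetAXXC libraries lay below all WT libraries, and the log2 fold change was -0.31 (standard error 0.06, adjusted p 0.0188). This call was lost without WT replicate 2 or 3, with adjusted p up to 0.0837. The gene stj, encoding the alpha2delta subunit of presynaptic calcium channels, was at 374, 346 and 350 CPM in WT and at 319.9, 319.7 and 320.1 CPM in TetAXXC. The groups did not overlap, and the log2 fold change was -0.16 (adjusted p 0.0460). With any 1 library left out its adjusted p was between 0.0510 and 0.138. The channel gene itself, cac, had an estimate of -0.08 and an adjusted p of 0.630.

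Of the 5 genes of vesicle-associated proteins 0 passed the edgeR test. In 2 the unadjusted p was under 0.05 with TetAXXC lower (background 8.31%, or 11.7% of the more abundant genes). Syn, the synapsin that tethers vesicles in reserve, was counted at 415, 391 and 395 CPM in WT and at 367, 355 and 373 CPM in TetAXXC. Its groups did not overlap, and the log2 fold change was -0.13 (95% interval -0.23 to -0.04). Its adjusted p was 0.0768, or 0.0350 when the replicate number was a block. Rab3, the GTPase of synaptic vesicles (chromosome 2R, 10721335 to 10729203) and the gene of this group with the highest level per exon length, was at 386, 384 and 380 CPM in WT and at 358, 357 and 362 CPM in TetAXXC. The WT SD was 3.06 CPM and the TetAXXC SD 2.85 CPM (n = 3 each), and the gap between the groups was larger than either. The log2 fold change of Rab3 was nevertheless only -0.09, with an adjusted p of 0.108.

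Rph, the Rab3 effector rabphilin (chromosome X, 10749077 to 10757666), was the lowest of the group at 36.7 RPKM. It was at 150, 159 and 148 CPM in WT and at 132, 147 and 145 CPM in TetAXXC, without overlap and with an adjusted p of 0.266. Sap47, a synapse-associated protein whose loss alters plasticity, was at 349, 293 and 351 CPM in WT and 330, 341 and 358 CPM in TetAXXC, with overlap. Vha100-1 encodes the neuronal a subunit of the V-ATPase, the proton pump that loads vesicles. Its counts gave 317, 321 and 319 CPM in WT and 301, 321 and 305 CPM in TetAXXC, with a 95% interval of -0.13 to 0.05. Of 30 other V-ATPase genes 22 were tested and 5 were called (22.7%, background 15.2% in either direction). VhaSFD was lower in TetAXXC (log2 fold change -0.29, adjusted p 0.0167). Another 4, Vha100-3, Vha36-2, Vha68-3 and VhaM9.7-d, were higher, with log2 fold changes from 3.31 to 3.91 and no more than 0.855 CPM on average in WT. Genes this low in WT can pass the filter on low counts through the TetAXXC libraries alone. The share of 22.7% therefore depends in part on that filter and is not read as a result about V-ATPase genes. In these 4 genes, as in the summed testis markers, replicate 1 was the highest library of each genotype, and the part of testis RNA in them was not tested. Without WT replicate 2 or without WT replicate 3 none of the 5 V-ATPase calls held, with adjusted p up to 0.158, and VhaM9.7-d was lost without any 1 library. Of the 10 other vesicle membrane genes, among them the transmitter transporters VAChT, VGlut, Vmat and VGAT, 0 passed. In 3 the unadjusted p was under 0.05, where 26.4% of all genes tested had such a p.

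**Figure D3:**
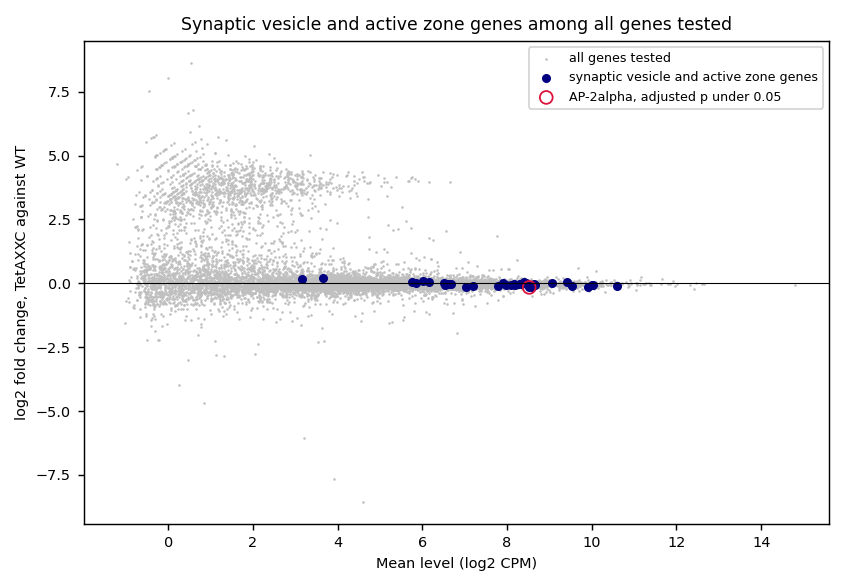
Mean level (log2 CPM, x axis) and log2 fold change in TetAXXC against WT (y axis) of the 11198 genes tested in grey and of the 36 synaptic vesicle and active zone genes in blue. The ringed point is AP-2alpha, and all 36 lie between -0.16 and 0.20 while the cloud of higher genes near 4 on the log2 scale holds none of them.

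The spread between libraries of a genotype was uneven among the genes. The coefficient of variation over the 3 libraries had a median of 4.05% in WT and 4.17% in TetAXXC, yet it was above 10% in WT for 6 genes: Syt1, Syx1A, unc-13, Frq1, brp and Rim. WT replicate 2 was the lowest WT library in all 6 of these, and in 24 of the 36 genes. In TetAXXC, replicate 2 was lowest in 25 of the 36 and replicate 3 highest in 21. The 6 variable genes had a median exon length of 10270 bases, against 4664 bases for the other 30. Across the 36 genes, deviation from the genotype's mean correlated with log2 exon length at r = 0.64, -0.66 and 0.41 in WT replicates 1, 2 and 3 (n = 36 genes of the same library, a description only). In TetAXXC replicates 1, 2 and 3 it was -0.02, -0.47 and 0.46. Over all genes tested the WT values were -0.08, -0.08 and 0.16, and the TetAXXC values -0.17, 0.02 and 0.23.

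Markers of neurons and of neuroblasts moved with them. Of the 10 neuron markers, 9 were lowest in WT replicate 2 among the WT libraries, all 10 were highest in TetAXXC replicate 3 among the TetAXXC libraries, and 7 had a WT coefficient of variation above 10%. The 8 neuroblast markers summed to 1780, 1109 and 1820 CPM in the WT libraries and to 1499, 1497 and 2150.4 CPM in the TetAXXC ones, with the same libraries lowest in WT and highest in TetAXXC. Summed markers of glia, photoreceptors, hemocytes and testis were also lowest in WT replicate 2 among the WT libraries. None of these sums was highest in TetAXXC replicate 3. Glial markers summed to 5205, 4785 and 5708 CPM in WT and to 5087, 5010 and 4536 CPM in TetAXXC. Sums of muscle and of fat body markers were instead highest in WT replicate 2. The part of any of these markers in the spread was not tested. Without WT replicate 2 the log2 fold change was -0.19 for brp, -0.14 for Rim, -0.24 for Syx1A and -0.20 for unc-13, against -0.06, 0.01, -0.08 and -0.11 with it. None of the 4 passed without that library, with adjusted p from 0.219 to 0.460. The part of WT replicate 2 in their spread beyond this was not tested. By contrast nSyb, Rab3, Csp and Vha100-1 had WT coefficients of variation of 1.54%, 0.798%, 0.334% and 0.724%.

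**Figure D4:**
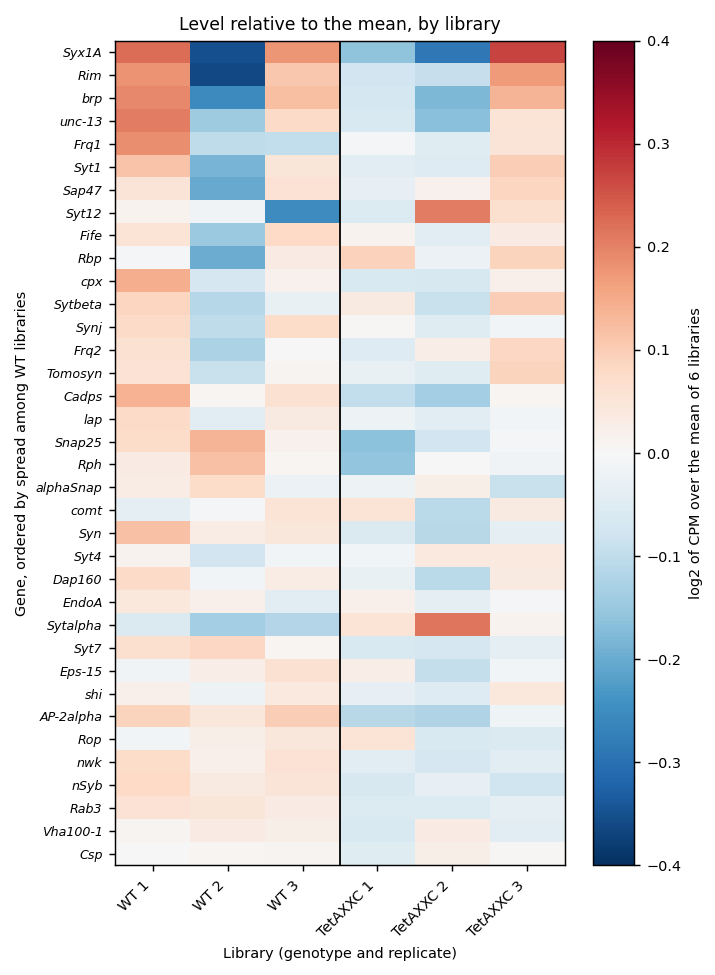
Log2 of the CPM of each of the 36 genes over its mean of the 6 libraries (colour), with 1 column per library and genes ordered from the highest to the lowest coefficient of variation among WT libraries. The top rows, Syx1A, Rim and brp, are low in WT replicate 2 and high in WT replicate 1 and TetAXXC replicate 3, while the bottom rows such as Csp differ little between libraries.

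The summed level of all the genes followed the same order of libraries. It was 13959, 12487 and 13446 CPM in WT and 12573, 12350 and 13255 CPM in TetAXXC. WT replicate 2 thus lay below 2 of the TetAXXC libraries, and the groups overlapped.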

How the data were processed

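Per the labels' protocols, poly(A) RNA was made into strand-specific (dUTP) libraries. Trimmomatic 0.39, HISAT2, SAMtools and featureCounts are named in the submitters' processing notes, with builds BDGP6 and dm6; their settings were not given in the sources used here. The authors deposited whole-number read counts per gene with merged exon lengths, per the file headers, and all 38 genes had the same coordinates in the Release 6 annotation. No pair of libraries of a genotype agreed within sampling noise (chi-square per degree of freedom 5.82 to 15.1). That spread cannot show whether the libraries came from separate pools of brains. The n of 3 per genotype rests on the labels, which call the replicates independent. The counts were tested with edgeR 4.0.16 in R 4.3.3 (filterByExpr with minimum count 10 and total 15, TMM, glmQLFit with legacy dispersion, glmQLFTest, two-sided). P-values were adjusted by Benjamini-Hochberg over 11198 genes with a threshold of 0.05. Standard errors came from the coefficient and its F statistic. RPKM is CPM per kilobase of merged exon. DESeq2 1.42.0 and limma 3.58.1 (voom) were alternatives, with other scalings, filters, a length-trend offset and each library left out. The test was checked on simulated data.

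The 38 genes and the lists were chosen with earlier results of these data known. Values in every library were given for genes past the threshold, the 3 largest estimates in each direction, the highest and lowest level per role and untested genes; other genes given in full were chosen after their values were seen. From other lists, genes past the threshold were named, at most 5 per list. Of the names listed, Sec20, Rab3GAP1, dysb, Sv2A, VhaAC45RP, VhaM8.9 and Apolpp were not found by name. The reported edgeR test fitted genotype alone and did not pair the libraries. Replicate numbers were taken as pairs only in the alternatives with a replicate block. Deviations from the group means correlated over all genes tested between same-numbered libraries (0.652, 0.419 and 0.343 for numbers 1, 2 and 3). Over the 36 genes alone these were -0.38, 0.71 and 0.58.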

Additional observations from a re-analysis of the deposited data

How the results depend on the processing

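The count of called genes moved with the setting, always among genes lower in TetAXXC, and 0 were higher in any of the 16 alternatives. It was 1 in the reported test, 0 with upper-quartile factors, 0 among genes of at least 4 log2 CPM, 0 with limma-voom and 8 with the DESeq2 Wald test (AP-2alpha, nSyb, Snap25, Syn, Rab3, Syt7, nwk and Cadps). It was 3 with the replicate block and 3 with the length trend removed (AP-2alpha, Syn and Cadps each time), and 4 with both together, where nSyb was added at an adjusted p of 0.0468. Leaving out a library gave from 0 to 1, the latter without TetAXXC replicate 3. The block changed no other call of these genes. The cause of these differences was not tested. The median log2 fold change stayed negative, from -0.074 without WT replicate 2 to -0.021 without WT replicate 1. The number of negative estimates ran from 21 with upper-quartile factors to 32 without WT replicate 2. In 13 genes, none of them called in any setting, the sign of the estimate changed in at least 1 alternative: Syt1, Sytbeta, Syx1A, Tomosyn, comt, Csp, Frq1, Frq2, brp, Rim, Fife, Sap47 and EndoA. Over all genes, 1707 were called, against 54 without WT replicate 2 and 43 higher with 61 lower without WT replicate 3. Leaving out TetAXXC replicate 3 gave 905 calls, leaving out replicate 1 of that genotype 1089, limma-voom 130, DESeq2 2402 (725 lower), and the length trend with the block 2408, the most of any setting. Among genes of at least 4 log2 CPM fitted alone there were 268. Sytalpha and Syt12 had the fewest counts of the tested genes, and their 95% intervals reach 0.44 and 0.50. Wide intervals were also found at higher counts. That of Syx1A (1343 to 2065 counts per library) ran from -0.53 to 0.37, and that of Rim (5013 to 7509 counts) from -0.33 to 0.35. The part of depth in these widths was not tested.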

Other observations

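Chromosome 4 carries 3 of the genes, Syt7, unc-13 and Cadps, which was noticed after their values were seen. Their log2 fold changes were -0.11, -0.11 and -0.14. The median over the 100 genes of chromosome 4 that were tested was -0.05, and over those with at least 4 log2 CPM (75 genes) it was -0.06. On the other chromosome arms the medians lay between -0.0064 and 0.010 over all genes tested, and between -0.025 and -0.013 over those with at least 4 log2 CPM. On chromosome 4, 4 of the 100 genes were called lower and 3 higher, against 3.17% and 12.1% of all genes tested.

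Where V-ATPase subunits have several copies, the copies differed. Vha100-1 was at 9.57 to 13.5 times the level of Vha100-2 per exon length. Vha100-3 was at 1.22, 0.436 and 0.227 CPM in WT and at 14.5, 5.06 and 7.24 CPM in TetAXXC, and Vha68-3 at 2.06, 0.218 and 0.284 CPM in WT and at 23.3, 6.68 and 9.31 CPM in TetAXXC.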
